A study of Mus musculus with 6 samples.

Results

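The 10 genes described here encode the NF-kB transcription factor subunits and feedback regulators that NF-kB itself induces: Nfkb1, Nfkb2, Rel, Rela, Relb, Nfkbia, Nfkbie, Nfkbiz, Tnfaip3 and Bcl3. They were chosen by symbol, as 10 of the 43432 genes listed in the deposited table, and all 10 passed the filter on low values. RNA came from macrophages of female FVB/N mice with the MMTV-PyMT transgene, whose viral promoter is active mainly in mammary epithelium and there expresses middle T, a polyomavirus oncoprotein. There were 3 libraries at 11 weeks of age and 3 at 8 weeks, and the series asks how these cells differ between late and early tumours. Both ages carried the transgene, so glands without it were not analysed here. Cells were sorted from digested glands as positive for CD45, MHC class II and CD14.

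NF-kB dimers rest in the cytoplasm, held by IkB proteins. Signals from Toll-like, interleukin 1 and TNF receptors activate the IKK kinases, which mark IkB for destruction and free the dimers to enter the nucleus. Among the first genes then transcribed are those of IkB alpha and A20, which shut the response off again, so these transcripts mark both the activity of the pathway and its restraint. A second, slower arm frees RelB by trimming the Nfkb2 product p100 to p52.

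None of the 10 genes was called different between 11 and 8 weeks. The 3 values at 11 weeks overlapped the 3 at 8 weeks for all 10, while the values of 11.9% of the 21675 genes tested did not overlap. By limma across all genes 0 of 10 passed an adjusted p of 0.05, against 0.0507% of all genes tested (0.0369% higher and 0.0138% lower at 11 weeks), and by edgeR 0 of 10 passed against 0.0646%. At an unadjusted p of 0.05, 0 of 10 passed by limma, edgeR, DESeq2 or limma-voom, against 8.03% of all genes by limma. The log2 differences, 11 weeks minus 8 weeks, lay between -0.25 for Tnfaip3 and 0.49 for Relb, and 4 were positive and 6 negative. Their median was -0.09, and the median over all genes tested was 0.05. The 95% interval lay within 1 log2 unit (a doubling or halving) of 0 for 8 of the 10. The exceptions were Nfkb2, whose interval ran from -1.01 to 0.51, and Relb, from -0.45 to 1.44, so at this spread a 2-fold difference in 1 direction could not be told from none for these genes. A p that misses the threshold does not show that the ages are alike. At these shares, counts of 0 among 10 genes do not set them apart from all genes tested.

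**Figure D1:**
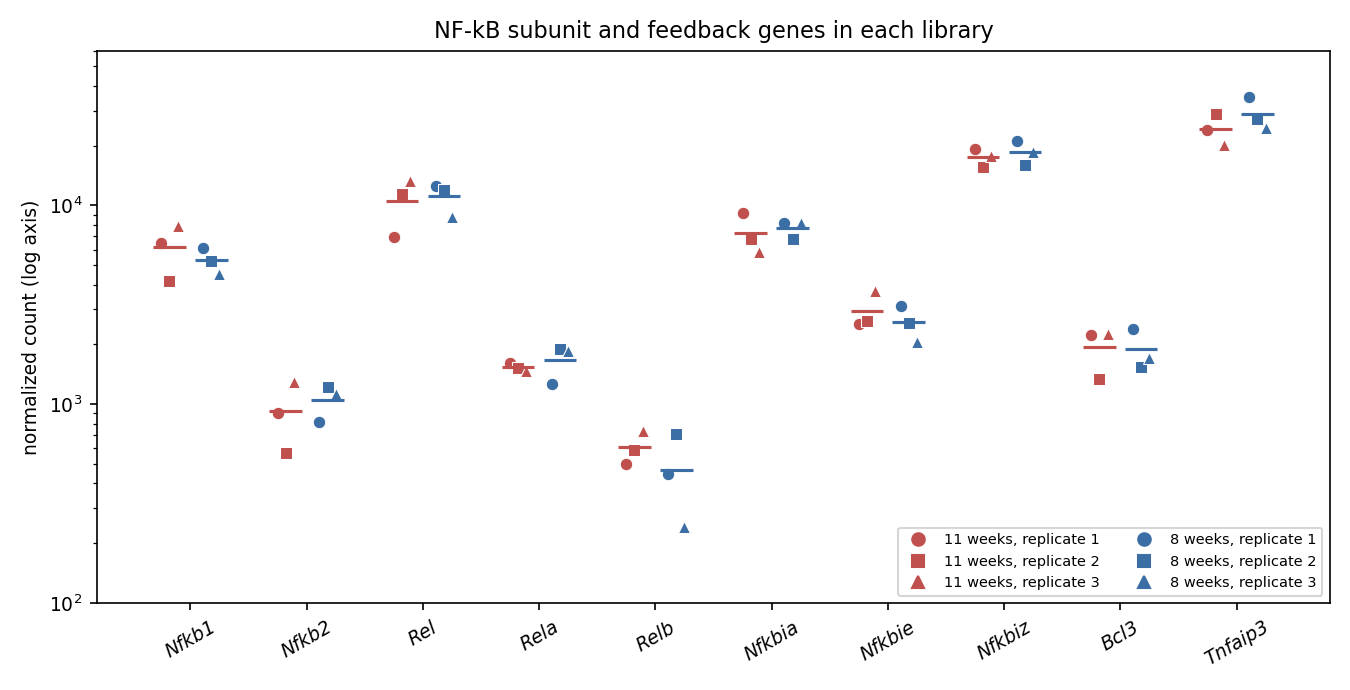
Normalized counts (log axis) of the 10 genes in each library, with 11 weeks (red) left of 8 weeks (blue) for each gene; marker shapes are replicate numbers and bars are means of 3 libraries. The ages overlap in every gene, with Nfkbiz at 15556 or more and Relb at 732 or less in all 6 libraries.

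NF-kB is known to act on the promoters of several of its own genes, and 4 promoter windows are printed because each holds the letters of the NF-kB consensus. The windows are RefSeq promoters in GRCm38.p6 that run from 250 bases before the start of transcription to 50 after it, and 7 of the 10 genes matched 1 or more. They were searched on both strands for the 10-base NF-kB consensus, and overlapping matches, also of opposite strands, were counted as 1 site. Of the 7 genes 6 held a match, all but Rela, against 9.6% of the 27025 genes with a window. Matches were more common in GC-rich windows, from 3.7% of windows under 50% GC to 14.7% of those at 70% or more, and the 10 windows of these genes had 47% to 75% GC. A match describes letters and is no measured binding site, and the lack of one in Rela says nothing of the factor. Capitals mark the matches, and each line is written 5′ to 3′ along the gene's strand:
Nfkbia, chr12:55492598-55492897, minus strand: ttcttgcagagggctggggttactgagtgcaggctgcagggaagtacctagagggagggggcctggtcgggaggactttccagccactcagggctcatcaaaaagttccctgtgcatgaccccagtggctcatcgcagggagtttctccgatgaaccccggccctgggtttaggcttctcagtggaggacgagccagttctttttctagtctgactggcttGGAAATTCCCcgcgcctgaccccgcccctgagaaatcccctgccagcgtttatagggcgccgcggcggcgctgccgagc
Tnfaip3, chr10:19015361-19015660, minus strand: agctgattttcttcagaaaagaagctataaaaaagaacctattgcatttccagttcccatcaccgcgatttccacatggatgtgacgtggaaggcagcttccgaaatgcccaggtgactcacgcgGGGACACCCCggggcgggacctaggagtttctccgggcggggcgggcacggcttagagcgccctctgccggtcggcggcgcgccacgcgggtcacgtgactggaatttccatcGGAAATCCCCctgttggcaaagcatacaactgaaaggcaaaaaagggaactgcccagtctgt
Nfkb2, chr19:46304487-46304786, plus strand: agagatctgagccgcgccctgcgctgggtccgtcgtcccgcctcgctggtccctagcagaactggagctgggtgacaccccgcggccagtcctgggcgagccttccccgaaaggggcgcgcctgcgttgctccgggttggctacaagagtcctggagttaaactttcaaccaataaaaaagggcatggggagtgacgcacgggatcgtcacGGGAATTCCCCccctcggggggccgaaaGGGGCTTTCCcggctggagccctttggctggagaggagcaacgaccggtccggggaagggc
Rel, chr11:23770920-23771219, minus strand: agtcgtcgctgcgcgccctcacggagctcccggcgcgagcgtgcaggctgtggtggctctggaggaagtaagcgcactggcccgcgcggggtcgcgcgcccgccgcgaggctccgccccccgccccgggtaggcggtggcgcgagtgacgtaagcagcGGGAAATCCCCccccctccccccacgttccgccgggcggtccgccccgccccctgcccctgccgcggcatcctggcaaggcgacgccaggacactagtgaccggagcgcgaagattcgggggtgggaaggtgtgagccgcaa

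Counting the first transcribed base as 1 and the base before it as -1, the match of Nfkbia, GGAAATTCCC, began at -29, and Tnfaip3 had one at -12, GGAAATCCCC, and another at -125, GGGACACCCC. In the printed window of Nfkb2, GGGAATTCCC began at -39 and GGGGCTTTCC at -11, and in Rel GGGAAATCCC began at -92. Window 2 of Nfkb2, not printed, held GGAATGTCCC at -236 and GGGACTTTCC at 11, and window 3, which overlaps window 2, held GGGACTTTCC at -225. Window 2 of Tnfaip3 held no match. In all, 8 of the 10 windows held a match. Bcl3 (chr7:19822706-19823005, minus strand) held GGGAAGTCCC at 3, inside the transcript, and Nfkbie (chr17:45555450-45555749, plus strand) held GGGGGATTCC at -106. Among other genes of the pathway with a window, a match was held by 8 of 17 target cytokines and chemokines, 9 of 27 target genes for survival, adhesion and enzymes, 3 of 12 kinases, 4 of 16 ubiquitin-editing genes and 4 of 21 adaptors.

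The transcripts of Tnfaip3, Nfkbia and Nfkbiz had the highest levels of the 10. Cells came from digested glands, and the part of digestion in these levels was not tested. Per kilobase of the principal coding transcript, mean levels over the 6 libraries in normalized counts were 6028 ± 1174 for Tnfaip3, 4741 ± 769.5 for Nfkbia and 4377 ± 503 for Nfkbiz (SD, n = 6). Rel and Nfkb1 followed at 1450.3 ± 327 and 1396 ± 333 per kilobase, then Nfkbie at 1138 ± 232 and Bcl3 at 1035 ± 235 (SD, n = 6). Rela, at 591 ± 89.0, stood below them, and Nfkb2 and Relb were lowest at 314.5 ± 88.0 and 243 ± 82.9 (SD, n = 6). Along this order the ranges over 6 libraries parted at 3 places only, between Nfkbiz and Rel, between Bcl3 and Rela, and between Rela and Nfkb2. All other neighbours overlapped. Within libraries, Tnfaip3 exceeded Nfkbia, Nfkbia exceeded Nfkbiz, Nfkb1 exceeded Nfkbie and Nfkb2 exceeded Relb in 5 of 6 each. Rel exceeded Nfkb1 in 4 of 6, and Nfkbie exceeded Bcl3 in 3 of 6. With the union of all annotated exons as the length, a choice made after the values were seen, Nfkb1 ranked 8 of 10 instead of 5, at 477 per kilobase, since its union spans 12061 bases against 4117 for the principal transcript. On that union scale Nfkbia exceeded Tnfaip3 in all 6 libraries. The ranges of Bcl3 and Rela overlapped there, though Bcl3 was higher in each of the 6. Nfkbia, Tnfaip3 and Nfkbiz lay at percentiles 99, 98.8 and 98.7 of 21448 genes with a union length, and Relb at 70.4.

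Of the DNA-binding subunits, Rel, Rela and Relb carry a transactivation domain, while Nfkb1 and Nfkb2 encode the precursors p105 and p100 that are trimmed to p50 and p52. Nfkb1 lies on chromosome 3 from 135584655 to 135691547 in GRCm38, the build of the deposited spans. It was at 6506, 4192 and 7883 normalized counts at 11 weeks (replicates 1, 2 and 3), against 6121, 5246 and 4539.5 at 8 weeks. The 11-week libraries held both its highest and its lowest value. Its log2 difference was 0.19 ± 0.24 (SE; limma adjusted p = 0.839). Nfkb2 (chromosome 19, 46304737 to 46312090) was at 902, 571 and 1296 normalized counts at 11 weeks, against 811, 1223 and 1124 at 8 weeks. Here too 11-week replicates 3 and 2 were the extremes of all 6, and the 8-week values fell between them. For Nfkb2 the log2 difference was -0.25 ± 0.36 (SE; limma adjusted p = 0.857). The span of Nfkb2 overlaps Psd on the other strand, a gene at 231 to 541 normalized counts, and counting is not stated to use strand, so reads in the overlap cannot be told apart.

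Rel, which encodes c-Rel, the subunit best known from lymphocytes and myeloid cells, lies on chromosome 11 from 23741514 to 23770970. It was at 6971, 11448 and 13256 normalized counts at 11 weeks, against 12527.5, 12029 and 8734 at 8 weeks. The low library at 11 weeks was replicate 1 and at 8 weeks replicate 3, and the other 4 lay within 11448 to 13256. Rel had a log2 difference of -0.11 ± 0.23 (SE; limma adjusted p = 0.915), and without 11-week replicate 1 it was 0.17. Rela encodes p65, the main activating partner of p50, and lies on chromosome 19 from 5637483 to 5648130. It was at 1611, 1526 and 1472 normalized counts at 11 weeks, against 1259.9, 1898 and 1857 at 8 weeks. All 3 values at 11 weeks sat inside the 8-week range, with a coefficient of variation of 4.6% at 11 weeks and 21.4% at 8 weeks. In log2 the ages differed by -0.10 ± 0.28 (SE; limma adjusted p = 0.934).

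Relb, the subunit released by the slower arm and needed in dendritic cells, lies on chromosome 7 from 19606217 to 19629438. It was at 502, 586 and 732 normalized counts at 11 weeks, against 447, 712 and 242 at 8 weeks. The lowest library, 8-week replicate 3, rested on 283 reads, and the highest was 3.03 times the lowest, the widest spread among the 10 genes. The ages differed in log2 by 0.49 ± 0.45 (SE; limma adjusted p = 0.812), a value that ranged from 0.09 to 0.87 when single libraries were left out. It was lowest without 8-week replicate 3.

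Relb ordered the 6 libraries exactly as Ccr7 did, the receptor that guides mature dendritic cells to lymph nodes, a pairing noticed after the values were seen. Ccr7 was at 294, 322 and 588 normalized counts at 11 weeks, against 209, 508 and 126 at 8 weeks. Of the 10 dendritic cell markers listed, 1 shared the order of Relb, as did 21 of the 10727 genes that averaged 100 or more (0.196%, Relb itself included). Zbtb46, a factor of conventional dendritic cells, was at 341, 377 and 253 at 11 weeks and 390, 641 and 621 at 8 weeks, in another order. Of the 10 markers 5 had a positive and 5 a negative difference, with 0 called by limma. Zbtb46, Batf3, Cd209a and Siglech, 4 of the 10, were lower at 11 weeks without overlap, and 0 were higher without overlap. Of all genes tested 11.9% did not overlap, in either direction. Fscn1, an actin bundler of mature dendritic cells, was at 34.0, 0 and 78.9 at 11 weeks and 48.1, 281 and 73.5 at 8 weeks. Summed over the 10 markers the level was 4197 to 5283 at 11 weeks and 5574.5 to 7247 at 8 weeks, most of it Cd209a. Clec9a was at 0 in 1 library of each age, Fscn1 in 1 at 11 weeks and Flt3 in 1 at 8 weeks. The part of dendritic cells in the Relb values was not tested. In a sorted bulk sample, fewer cells of a type and less RNA per cell cannot be told apart.

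**Figure D2:**
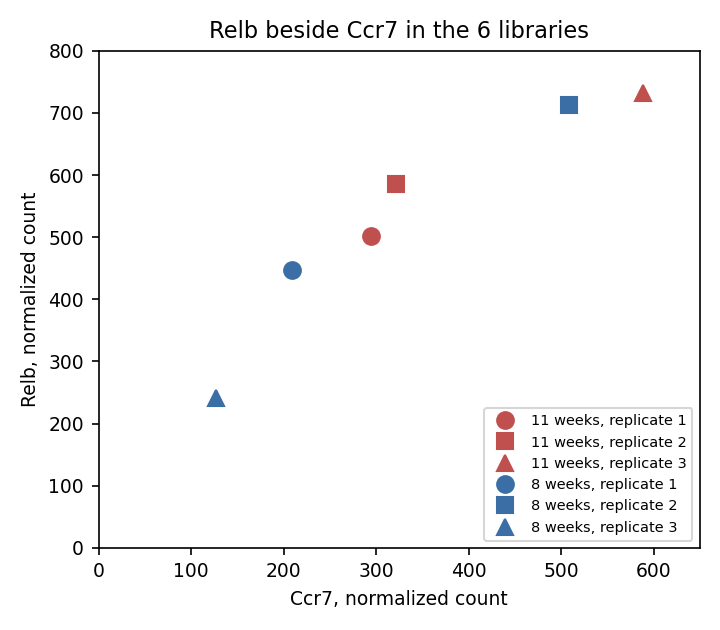
Relb (y axis) and Ccr7 (x axis) in normalized counts, 1 point per library, with 11 weeks in red and 8 weeks in blue and marker shapes for replicate numbers. Both genes are lowest in 8-week replicate 3 (242 and 126) and highest in 11-week replicate 3 (732 and 588), and the ages interleave.

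The IkB proteins of the cytoplasm are encoded by Nfkbia and Nfkbie. Nfkbia (IkB alpha, the quickest to be degraded and made again) lies on chromosome 12 from 55489411 to 55492647. It was at 9152, 6819 and 5817 normalized counts at 11 weeks, against 8119, 6795 and 8186 at 8 weeks. The 11-week libraries again held both extremes. Nfkbia had a log2 difference of -0.11 ± 0.21 (SE; limma adjusted p = 0.904). Nfkbie (IkB epsilon, a slower inhibitor) lies on chromosome 17 from 45555716 to 45563169 and was at 2545, 2621 and 3694 normalized counts at 11 weeks, against 3128, 2569.9 and 2067 at 8 weeks. Its highest value was 11-week replicate 3, the library in which Nfkbia was lowest, and its lowest was 8-week replicate 3. Nfkbie had a log2 difference of 0.19 ± 0.25 (SE; limma adjusted p = 0.843).

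The nuclear IkB proteins act on DNA-bound dimers. Nfkbiz encodes IkB zeta, which is needed for a set of late inflammatory genes such as Il6 and Lcn2, and lies on chromosome 16 from 55811375 to 55838899. It was at 19205, 15556 and 17688 normalized counts at 11 weeks, against 21025, 15935 and 18669 at 8 weeks, the steadiest of the 10, with a highest value 1.35 times the lowest. Its log2 difference of -0.08 ± 0.17 (SE; limma adjusted p = 0.907) had a 95% interval from -0.43 to 0.27, or 0.74-fold to 1.21-fold. Bcl3, which binds p50 and p52 homodimers, lies on chromosome 7 from 19808462 to 19822770 and was at 2232, 1347 and 2250.5 normalized counts at 11 weeks, against 2398, 1546 and 1717 at 8 weeks. In each age replicate 2 was lowest. Its log2 difference of 0.03 ± 0.29 (SE; limma adjusted p = 0.984) was nearest to 0 among the 10, and its sign turned with the scaling to library totals (-0.06). Antisense genes that overlap Bcl3 reached at most 113 normalized counts.

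Tnfaip3 encodes A20, an enzyme that edits ubiquitin chains upstream of IKK and so ends signalling, and lies on chromosome 10 from 19000910 to 19015657. It was at 23924, 28874 and 20182 normalized counts at 11 weeks, against 35315, 27229.6 and 24401 at 8 weeks. The highest library was 8-week replicate 1 and the lowest 11-week replicate 3, but 11-week replicate 2 exceeded 2 of the 3 libraries at 8 weeks. Tnfaip3 had a log2 difference of -0.25 ± 0.18 (SE; limma adjusted p = 0.783), the smallest unadjusted p of the 10 (0.175 by limma). It stayed negative in all 17 alternatives tried, between -0.38 and -0.10, with adjusted p of at least 0.622. In the authors' deposited table the 10 genes had adjusted p of 0.749 to 0.98, against 1.91% of 14234 genes under 0.05 there.

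**Figure D3:**
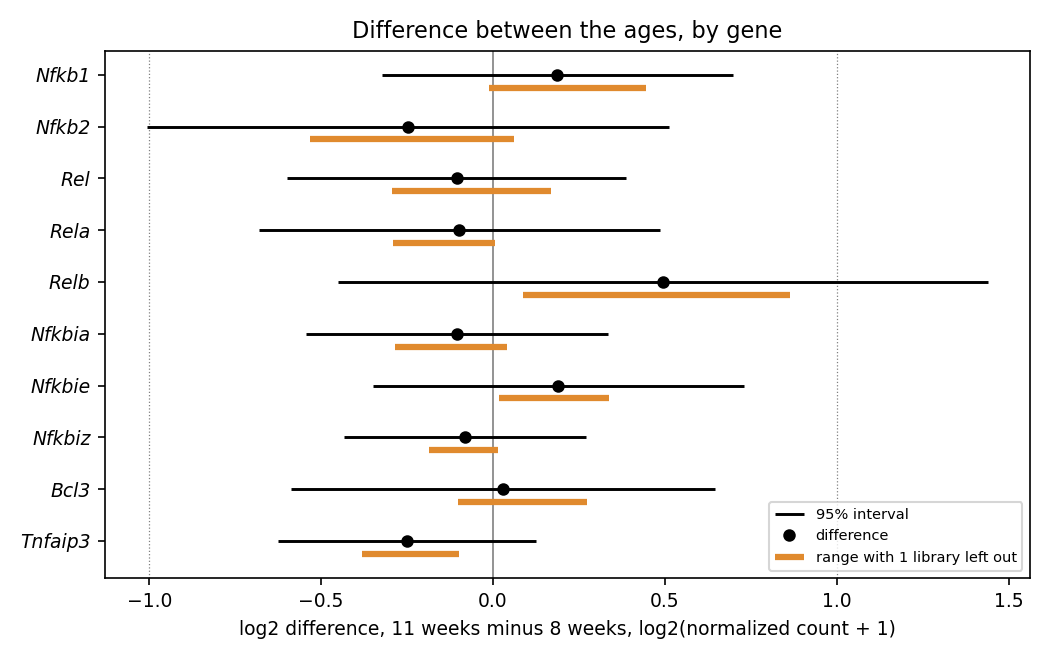
Log2 difference, 11 weeks minus 8 weeks, of each gene (points) with its 95% interval from limma (black) and the range when each of the 6 libraries is left out in turn (orange); dotted lines mark 1 log2 unit. All 10 intervals include 0, and those of Nfkb2 and Relb pass a dotted line.

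Libraries of one age differed from each other in which of these genes stood highest or lowest. Replicate 3 at 11 weeks was the highest of all 6 libraries for 5 genes (Nfkb1, Nfkb2, Rel, Relb and Nfkbie). It was the lowest for 2, Nfkbia and Tnfaip3. This was no split of subunits from inhibitors. Nfkbie encodes an inhibitor, and the subunit gene Rela was below its own mean in that library (-0.11 in log2). How often that library is the extreme among all genes was not tested. Replicate 2 at 11 weeks was the lowest for 4 (Nfkb1, Nfkb2, Nfkbiz and Bcl3). At 8 weeks, replicate 1 was highest for Nfkbiz, Bcl3 and Tnfaip3, and replicate 3 lowest for Relb and Nfkbie. With each gene centred on its own mean over 6 libraries in log2, Nfkb1 and Bcl3 were the most alike of 45 pairs (root mean square difference 0.17), closely followed by Nfkbia and Nfkbiz (0.172). Relb and Nfkbia were the least alike (0.698).

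**Figure D4:**
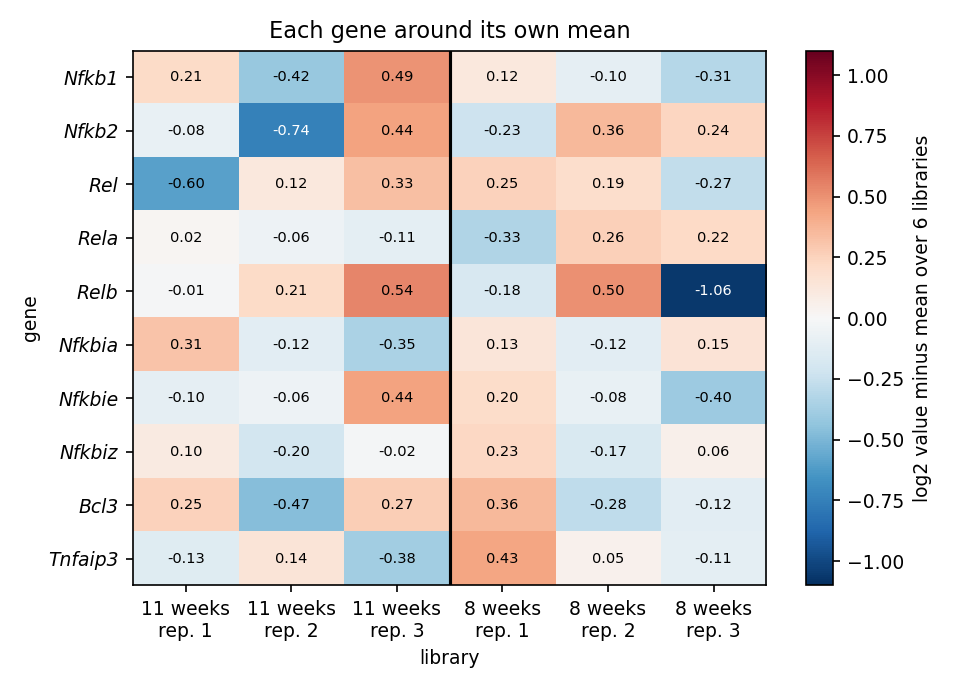
Log2 value of each gene (rows) in each library (columns, 11 weeks left of the line) minus its mean over the 6 libraries; red is above and blue below that mean. The spread lies within each age: Nfkb2 ranges from -0.74 to 0.44 at 11 weeks and Relb from -1.06 to 0.50 at 8 weeks.

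For each of the 10, the gene nearest in profile was sought among the 10726 others that averaged 100 or more normalized counts. For Nfkb1 it was Id2, an inhibitor of basic helix-loop-helix factors, at a root mean square difference of 0.073 in log2 over 6 libraries. Id2 was at 6293, 4253 and 7664 normalized counts at 11 weeks, against 5985, 4915 and 4982 at 8 weeks. For the others the nearest were Atg16l1 for Nfkb2, 2510009E07Rik for Rel, Tenm4 for Rela, Mettl2 for Relb, Degs1 for Nfkbia, Cyth2 for Nfkbie, Gapvd1 for Nfkbiz, Wdr36 for Bcl3 and Ubfd1 for Tnfaip3, at 0.040 to 0.129. Among so many genes over only 6 libraries a close match can be found for any gene, and shared regulation was not tested.

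A ratio of 2 genes within a library does not depend on how that library was scaled. The log2 ratio of Relb to Rela was -1.68, -1.38 and -1.01 at 11 weeks, against -1.49, -1.41 and -2.94 at 8 weeks, and the ages overlapped. That of Nfkb2 to Nfkb1 was -2.85, -2.87 and -2.60 at 11 weeks, against -2.91, -2.10 and -2.01 at 8 weeks. Nfkb2 was thus low beside Nfkb1 in all 3 libraries at 11 weeks and in 8-week replicate 1. That of Nfkbia to Nfkb1, an inhibitor to a subunit, was 0.49, 0.70 and -0.44 at 11 weeks, against 0.41, 0.37 and 0.85 at 8 weeks. For Nfkbiz to Nfkbia the log2 ratio was 1.29 ± 0.28 at 11 weeks and 1.26 ± 0.10 at 8 weeks (SD, n = 3 each). Of 8 ratios compared, all overlapped between the ages, and exact two-sided permutation tests gave p of 0.4 to 1 (0.8 to 1 adjusted over the 8), where the smallest p that 3 against 3 allows is 0.1.

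Around the 10 genes, 144 others on lists of the pathway were tested, and limma and edgeR each called 1, Ccl2. By limma 26 of the 144 had an unadjusted p under 0.05, against 8.03% of all genes tested. The lists were written with earlier results of these data known, so this count is a description and not a test. Among 15 kinases 6 differences were positive and 9 negative, with a median of -0.11, and 0 passed (limma). Ikbke, an interferon-inducible relative of the IKK kinases, averaged 1941 ± 146 at 11 weeks and 867 ± 385 at 8 weeks in normalized counts (SD, n = 3 each), without overlap. Its log2 difference was 1.27 ± 0.34 (SE; limma adjusted p = 0.283), and DESeq2 called it. Map3k3 was at 1679.5 and 1171, Map3k8, the kinase Tpl2, at 2765 and 3691, and Tank at 3865 and 5057.5 mean normalized counts at 11 and at 8 weeks, with limma adjusted p of 0.678 to 0.717. Of 25 adaptors 11 were positive and 14 negative, with a median of -0.15, and 0 passed. Irak4, the kinase next to the receptor adaptor MyD88, was at 2897 ± 229 at 11 weeks and 1920 ± 242 at 8 weeks (SD, n = 3 each; limma adjusted p = 0.54), without overlap. Traf3 stood at 1302 and 837, Ripk1 at 3142 and 4276, and Irak1 at 1813 and 2387 mean normalized counts at 11 and at 8 weeks, with limma adjusted p of 0.661 to 0.732.

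Ubiquitin-editing genes gave 10 positive and 12 negative differences of 22, a median of -0.11 and 0 calls. Cyld, a deubiquitinase that restrains NF-kB beside A20, was at 1383.5 ± 188 at 11 weeks and 2382 ± 619 at 8 weeks (SD, n = 3 each; limma adjusted p = 0.479), without overlap. Otulin, which trims linear ubiquitin, was at 1542 and 949, the A20-binding gene Tnip3 at 2879 and 4134, and Traf3ip2 at 95.6 and 21.3 mean normalized counts at 11 and at 8 weeks (limma adjusted p = 0.607, 0.658 and 0.6). Of 15 nuclear partners 6 were positive, with a median of -0.06 and 0 calls. Among them Socs1, a cytokine signalling inhibitor, was at 34.9, 37.3 and 48.0 normalized counts at 11 weeks, against 2.7, 0 and 7.7 at 8 weeks (limma adjusted p = 0.492). Ppm1d, Setd7 and the acetyltransferase gene Ep300 had limma adjusted p of 0.775 to 0.82. Of the 4 genes on the list of other IkB genes 0 were called by limma. Ankrd42, on that list but an ankyrin repeat gene rather than an established IkB gene, was at 24.8, 54.4 and 70.7 normalized counts at 11 weeks. At 8 weeks it was at 87.4, 161 and 632 (limma adjusted p = 0.535, called by DESeq2). Nfkbib and Nfkbil1 had limma adjusted p of 0.85 and 0.843. Nfkbid, named outside the rule, averaged 3198 at 11 weeks and 3167 at 8 weeks (limma adjusted p = 0.978). Receptors of the slower arm, Cd40, Tnfrsf11a, Tnfrsf13c and Ltbr among 6 listed, gave 0 calls and adjusted p of 0.805 to 0.957 for these 4 (limma). Tnfrsf13c, the BAFF receptor, had a higher mean at 11 weeks (107 against 86.8) but a log2 difference of -1.18, as 1 library at 11 weeks was at 0.

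Of 25 target cytokines and chemokines 22 had a positive difference, with a median of 1.03 (0.94 scaled to library totals), where 52.8% of all genes tested were positive. Csf2 and Ccl20, at 0 in every library at 8 weeks, passed the filter only through 11 weeks, and without them it was 20 of 23 with a median of 0.996. Ccl2 rose, at 38270, 25638 and 39964 normalized counts at 11 weeks, against 15717, 13649 and 14719.5 at 8 weeks. This monocyte attractant had a log2 difference of 1.21 ± 0.18 (SE; limma adjusted p = 0.0127), and its ages did not overlap. The call rests on all libraries but one: it held without 11-week replicate 2 (adjusted p = 0.00368) and was lost without any other single library, with adjusted p of 0.0554 to 0.209 and log2 differences of 1.09 to 1.26. It was also lost with scaling to library totals (adjusted p = 0.104) and with a pseudocount of 10 (0.0724). Il1rn, the interleukin 1 receptor antagonist, was at 42729 ± 6095 at 11 weeks and 21413 ± 5797 at 8 weeks (SD, n = 3 each; limma adjusted p = 0.0857), without overlap. Tnf itself was at 8836, 6850 and 4467 normalized counts at 11 weeks, against 5338, 6136 and 3945 at 8 weeks, with overlap. It is named outside the rule, after its values had been looked at. Among the 3 with a negative difference were Ccl4, at 831 and 1146, and Cxcl16, at 9735 and 11347 mean normalized counts at 11 and at 8 weeks (limma adjusted p = 0.758 and 0.803). These lists were written with results of the same data known, so their direction is a description.

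Of 35 target genes for survival, adhesion and enzymes 25 were positive, with a median of 0.26 and 0 calls by limma. Nos2 and Ptx3 passed the filter only through 11 weeks, and without them it was 23 of 33 with a median of 0.25. Sdc4, a heparan sulfate proteoglycan, was at 20432 ± 2506 at 11 weeks and 10161 ± 3814 at 8 weeks (SD, n = 3 each; limma adjusted p = 0.157), and Ptgs2, the inducible cyclooxygenase, at 11367 ± 999 at 11 weeks and 6702 ± 2468 at 8 weeks (SD, n = 3 each; limma adjusted p = 0.329), both without overlap. Mmp9, a matrix protease, was at 577 ± 98.2 at 11 weeks and 1120.3 ± 157 at 8 weeks, and Xiap, an inhibitor of caspases, at 2836 ± 1061 at 11 weeks and 4591 ± 616 at 8 weeks (SD, n = 3 each; limma adjusted p = 0.442 and 0.481), also without overlap. DESeq2 on the same reads called 10 of the 144: Ankrd42, Ccl2, Ikbke, Il10, Il1b, Il1rn, Marcksl1, Mmp9, Saa3 and Sdc4. It called 2.73% of the 15454 genes it adjusted.

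**Figure D5:**
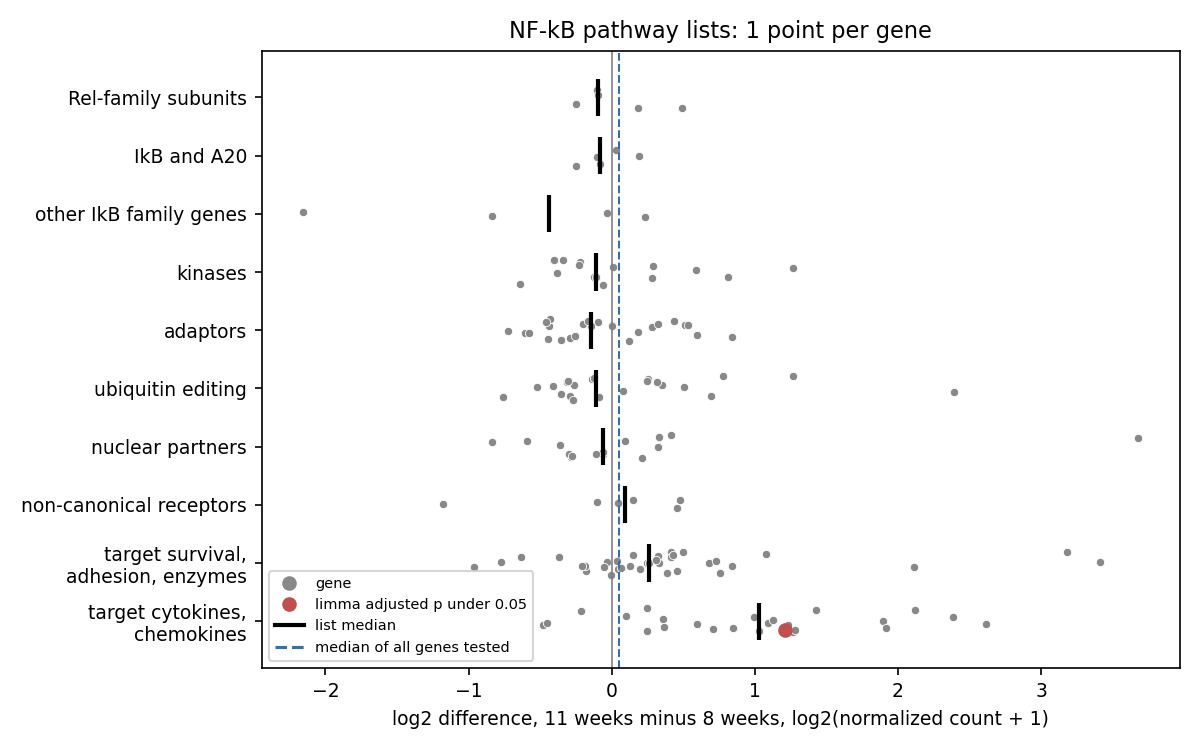
Log2 difference, 11 weeks minus 8 weeks, with 1 point per gene in each list (rows), the list median as a black bar, and the median of all genes tested as a dashed line. The rows of subunits and of IkB and A20 genes lie around 0, the target cytokine row has a median of 1.03, and the 1 red point, Ccl2, passed an adjusted p of 0.05.

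Markers of neutrophils, mammary epithelium and fibroblasts also had mostly positive differences, with 0 called by limma and 16 of the 29 tested at an unadjusted p under 0.05, against 8.03% of all genes tested. Neutrophil markers were positive in 8 of 9 tested of 12, with summed levels of 5948 to 6700 normalized counts at 11 weeks and 1864 to 4508 at 8 weeks. Most of the sum at 8 weeks was Csf3r, which averaged 2490 at 11 weeks and 2424 at 8 weeks, with overlap (limma adjusted p = 0.92). Of this list, Ly6g and Camp were at most 0.9 and 2.8 in any library, and Elane was at 0 in all 6. Others of the list stood higher at 11 weeks without overlap: S100a9 averaged 1255 and 95.3, S100a8 439 and 64.0, Cxcr2 558 and 58.8, and Retnlg 41.4 and 1.7 mean normalized counts at 11 and at 8 weeks (limma adjusted p of 0.151 to 0.479). Mammary epithelial markers were positive in 11 of 12, with sums of 4521 to 13891 at 11 weeks and 2515 to 3258 at 8 weeks. Csn2 was the largest single part of that sum in every library. Fibroblast markers were positive in 8 of 8, with sums of 3407 to 3807 at 11 weeks and 1384 to 2125 at 8 weeks. Krt5 was at 0 in 2 libraries at 8 weeks, Cldn3 in 1 at 8 weeks and Krt14 in 1 at 11 weeks. The part of these cells in the target values was not tested. T cell markers summed to 5768 to 6428 at 11 weeks and 6811 to 8019 at 8 weeks, most of it Il7r and Cd4. Yet 6 of the 10 had a positive difference and 4 a negative one, with a median of 2.01 and 0 called by limma. Bcl11b passed the filter only through 11 weeks, and without it 5 of 9 were positive, with a median of 1.715. The T cell receptor genes Cd3e and Trac averaged 231 and 53.4 normalized counts at 11 weeks, against 46.3 and 9.2 at 8 weeks, without overlap (limma adjusted p = 0.389 and 0.613). Cd3g of the same receptor complex went the other way, averaging 21.8 at 11 weeks and 60.7 at 8 weeks, with overlap (limma adjusted p = 0.705). Cd3d averaged 29.9 at 11 weeks and 16.4 at 8 weeks, with overlap. The means of Cd2, Cd4 and Il7r were lower at 11 weeks, also with overlap. B cell markers summed to 12 to 682.5 at 11 weeks and 83.6 to 367 at 8 weeks, and endothelial markers to 696 to 1259 at 11 weeks and 419.8 to 589 at 8 weeks. All 10 macrophage markers were present in every library, summing to 305238 to 331896 at 11 weeks and 382281 to 415986 at 8 weeks. Without H2-Ab1 the other 9 summed to 216784 to 251194 at 11 weeks and 243375 to 270510 at 8 weeks, with overlap. Of the genes behind the sort, H2-Ab1, an MHC class II chain, fell to 79304 ± 9922 at 11 weeks, against 141395 ± 10163 at 8 weeks (SD, n = 3 each; limma adjusted p = 0.0127). Its call was lost by edgeR (adjusted p = 0.0696), with library totals (0.104), with a pseudocount of 10 (0.0724), and without 11-week replicate 1 or any 1 library at 8 weeks (limma adjusted p of 0.0705 to 0.137). Cd14 was at 33730.1 ± 3977 at 11 weeks and 21806 ± 2033 at 8 weeks (SD, n = 3 each; limma adjusted p = 0.198), without overlap. Ptprc, which encodes CD45, was at 26153 ± 2707 at 11 weeks and 34894 ± 1981 at 8 weeks (SD, n = 3 each; limma adjusted p = 0.434), also without overlap. Genes that respond to tissue digestion, a list of 16, summed to 482493 to 535335 at 11 weeks and 486439 to 568348 at 8 weeks, with overlap and 0 calls, with Zfp36 and Dusp1 as a large part of it. Within it the heat shock gene Hspa1b was at 1046, 804.5 and 1200.0 normalized counts at 11 weeks, against 1876, 3943 and 1610 at 8 weeks, without overlap (limma adjusted p = 0.31). Hspa1a averaged 3739 at 11 weeks and 7203 at 8 weeks, with overlap, and Btg2, an antiproliferative gene, 9963 at 11 weeks and 12664 at 8 weeks, without overlap (limma adjusted p = 0.479 and 0.643). These genes of other lists are named outside the rule, after their values had been looked at.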

How the data were processed

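Per the file headers, the deposited table gives every gene 1 signal value per library. The authors' comparison of the ages stands beside it, with its log2 change, its fold as a ratio, and raw and adjusted p-values. STAR 2.4, DESeq2 1.6 and the GRCm38 build are named, per the submitters' processing notes, without a role. The counting tool, annotation release and strand setting were not given in the sources used here. Per the labels' protocols, under 100 ng of RNA went into Nugen Ovation and Nextera libraries.

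The signal values are counts divided by 1 factor per library: dividing by each library's step gave whole reads within 0.05 for at least 99.834% of values above 0. Up to a common constant, these factors matched DESeq2 size factors computed from the recovered reads in all 6 libraries. In 11-week replicate 2 the step (1.008085) is so near 1 that low values alone cannot show it; its values from 20 to 300 were 100% whole. Depth was 38784434 to 75004880 reads, with 35.2% to 51.8% in mitochondrial ribosomal RNA, and each of the 10 genes had at least 283 reads in every library.

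The values being normalized, edgeR on raw counts was not the main test. limma 3.58.1 (R 4.3.3, with trend and robust options) was fitted to log2(value + 1) of the 21675 genes with a mean of at least 1 in either age, with age as the only term and Benjamini-Hochberg adjustment over all. The added 1 understates differences of low genes. Alternatives were edgeR 4.0.16, DESeq2 1.42.0 and limma-voom on the reads, other scalings, filters and pseudocounts, a replicate block, and leaving out each library. The labels number the samples without saying that each is a separate animal, so the p-values reflect only how these samples vary, which may be technical variation. Lengths came from GENCODE M21 (GRCm38) and promoters from RefSeq. Named genes are the 10, from each pathway list up to 2 per direction with the smallest p, and the nearest profile of each of the 10. The 10 genes and the lists were chosen with earlier results of these data known. Of 251 list entries 250 matched by symbol and 1 by gene ID.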

Additional observations from a re-analysis of the deposited data

How the results depend on the processing

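None of the 10 genes passed an adjusted p of 0.05 in any of the 17 alternatives. Of their 170 values 12 turned in direction, 11 by leaving out 1 library and 1 by scaling to library totals (Bcl3, -0.059). With 1 library left out the log2 differences ran from -0.011 to 0.444 for Nfkb1, -0.531 to 0.06 for Nfkb2, -0.295 to 0.169 for Rel, -0.29 to 0.005 for Rela, 0.088 to 0.865 for Relb, -0.285 to 0.042 for Nfkbia, 0.017 to 0.336 for Nfkbie, -0.186 to 0.014 for Nfkbiz, -0.101 to 0.274 for Bcl3 and -0.382 to -0.099 for Tnfaip3. Of 56 ratio values 7 turned, and the log2 differences of those ratios ran from -0.26 to 0.3 for Rel to Rela, -0.52 to 0.05 for Nfkbia to Nfkb1, -0.02 to 0.57 for Nfkbie to Nfkbia, -0.31 to 0.04 for Tnfaip3 to Nfkbia and -0.13 to 0.13 for Nfkbiz to Nfkbia.

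Over all genes the 11 calls became 422 with DESeq2, 26 with limma-voom, 6 with library totals, 5 with a pseudocount of 10, 45 with the replicate block, and 3 to 16 with 1 library left out. Among the 144 pathway genes the 1 call became 10 with DESeq2, 2 with limma-voom, 0 with library totals, 0 with a pseudocount of 10, 6 with the replicate block, and 0 to 2 with 1 library left out; apart from edgeR and library totals, these pathway counts were added after seeing the data. The cause was not tested. Same-numbered libraries did not deviate together (correlations of -0.034, -0.002 and -0.027 over 16280 genes), so the numbers were not taken as pairs, and the block changed no call among the 10. Per length, 6 of the 10 levels moved by more than 1 SD with the union of exons, also chosen after seeing the data.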
